A study of Mus musculus with 12 samples.

Results

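Liver expression of 42 genes of fatty acid oxidation, ketogenesis and PPARalpha signalling was described in 12 RNA-seq libraries. The genes were taken by name from a list of enzymes, transporters, regulators and targets. That list was chosen with earlier results of these data known, so shares and medians of the 42 genes are descriptions and were not tested. All 42 were among the 56065 genes listed, and all 42 were among the 13631 genes with enough reads to be tested. The libraries form 3 groups of 4. MD+CA mice received a MASH diet, high in fat (40% of energy), fructose (20% of energy) and cholesterol (2%), together with cinnabarinic acid at 12 mg/kg. MD mice received that diet with vehicle, 0.2% DMSO in saline. CD mice received a control diet with 10% of energy from fat and matching sucrose, and the labels give no injection for them. Mice of all 3 groups were 8 weeks old at the start and stayed on their diet for 20 weeks. Injections were intraperitoneal, 3 a week over the same 20 weeks. Mice of all 3 groups carried floxed AhR alleles (AhR fl/fl), and the labels name no Cre. Cinnabarinic acid is made from tryptophan and activates AhR, the aryl hydrocarbon receptor. The study asked whether it protects the liver in metabolic dysfunction-associated steatohepatitis (MASH), so MD+CA vs MD, MD vs CD and MD+CA vs CD are compared here. Nothing in the labels says whether the 4 libraries of a group are 4 mice, so p-values may measure technical spread only.

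In hepatocytes, long-chain fatty acids enter mitochondria as carnitine esters and are shortened by beta-oxidation, and the resulting acetyl-CoA feeds ketogenesis. Very long chains are first shortened in peroxisomes, and microsomal omega-hydroxylases of the Cyp4a family take up a side route that rises when fatty acids accumulate. PPARalpha is a nuclear receptor that senses fatty acids. It pairs with RXR, binds direct repeats spaced by a single base (DR1) and drives many genes of these routes in rodent liver, above all in fasting.

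Promoter sequence was examined because many of the 42 genes lay lower together in MD+CA livers. RefSeq windows of GRCm38.p6, from 250 bases before to 50 bases after a start site, were at hand for 34 of the 42 genes. The DR1 letters searched on both strands were 2 copies of AGGTCA spaced by 1 base of any kind, which gives 12 fixed letters. With up to 2 mismatches they occurred in windows of 4 of the 34 genes (11.8%), against 4.4% of 27025 genes with windows. With up to 1 mismatch they occurred in 0 of the 34 genes, against 0.644% of all genes. The 4 matches are shown with matching letters in capitals, read along the motif.
Acot4: cGGcCAaAGGTCA
Etfa: AGGgCAaAGGTaA
Creb3l3: AGGggAgAGGTCA
Slc25a20: AGGTgAaAGGTCg
A match is a description of letters and not a binding site. Of the 4 matched genes, Acot4 was among the 6 that fell in MD+CA vs MD, as given below. Creb3l3, Slc25a20 and Etfa were not, and Etfa had a log2 fold change of 0.34. The other genes that fell, Slc22a5, Pex11a, Decr2, Eci2 and Acot3, had no match within 2 mismatches. The Acot genes encode acyl-CoA thioesterases, which release free fatty acids from CoA, and lie side by side on chromosome 12. The 250 bases before the starts of Acot4 (chr12:84038129-84038378, plus strand, GRCm38.p6) and Acot3 (chr12:84051894-84052143, plus strand, GRCm38.p6) are shown because these neighbours were the 2 genes whose MD+CA libraries lay below all libraries of both other groups. Capitals mark the DR1 match on the opposite strand and the E-box CACGTG. The E-box, an element bound by clock factors, was searched after these letters had been seen, and it occurred in windows of 2 of the 34 genes (5.88%), against 8.09% of all genes.
Acot4: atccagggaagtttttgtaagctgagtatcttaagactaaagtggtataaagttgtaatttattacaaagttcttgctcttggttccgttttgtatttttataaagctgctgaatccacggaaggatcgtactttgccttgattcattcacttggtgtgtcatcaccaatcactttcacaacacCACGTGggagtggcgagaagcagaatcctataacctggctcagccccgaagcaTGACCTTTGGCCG
Acot3: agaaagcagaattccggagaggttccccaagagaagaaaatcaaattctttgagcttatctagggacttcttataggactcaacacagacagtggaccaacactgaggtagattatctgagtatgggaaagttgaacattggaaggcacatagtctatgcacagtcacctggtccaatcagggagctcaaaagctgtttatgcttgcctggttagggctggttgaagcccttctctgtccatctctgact

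Between 9089586 and 14492587 reads were assigned per library. Hepatocyte markers such as Alb, at 16609 to 45525 CPM (read counts scaled to a common total, with TMM factors between libraries), were abundant in all 12. The labels call the mice male, yet 4 Y-linked genes (Ddx3y, Eif2s3y, Kdm5d and Uty) were at 0 reads throughout, and Xist was at 5122 to 12865 reads. MD replicate 2 stood apart by its mitochondrially encoded RNA, 17.5% of reads against 4.97 to 10.7% in the other 11. MD+CA replicate 2 stood apart by 5 of 6 striated muscle markers. These markers summed to 525 CPM there, to 15.1 and 6.31 CPM in MD+CA replicates 3 and 4, and to at most 1.32 CPM in the other 9.

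Levels per length were compared as TPM (read counts per transcript length, scaled to a fixed total per library). Etfb and Etfa, the 2 subunits of electron transfer flavoprotein, were among the 3 highest of the 42 genes in every group. Etfb averaged 906 TPM in MD+CA, 869 TPM in MD and 770 TPM in CD, and Etfa 738 TPM in MD+CA, 506 TPM in MD and 792 TPM in CD. The order below them differed between groups. The thiolase Acaa1b averaged 294 ± 183 TPM in MD+CA, 607 ± 166 TPM in MD and 413 ± 137 TPM in CD (SD, n = 4 each), so that in MD it stood above Etfa, which averaged 506 ± 265 TPM there, by less than the spread between libraries. At the low end stood the coactivator Ppargc1a, the mitochondrial thioesterase Acot2, the kinase Pdk4 and the carnitine transporter Slc22a5, each at no more than 12.1 TPM in any group mean. PPARalpha itself, Ppara, had 19.3 TPM on average over all libraries. Group means of log2 CPM ran MD highest, CD next and MD+CA lowest for 24 of the 42 genes (57.1%), an order found in 21.8% of all genes tested. MD+CA vs MD and MD vs CD share the MD libraries, so this order is not independent evidence for either comparison.

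**Figure D1:**
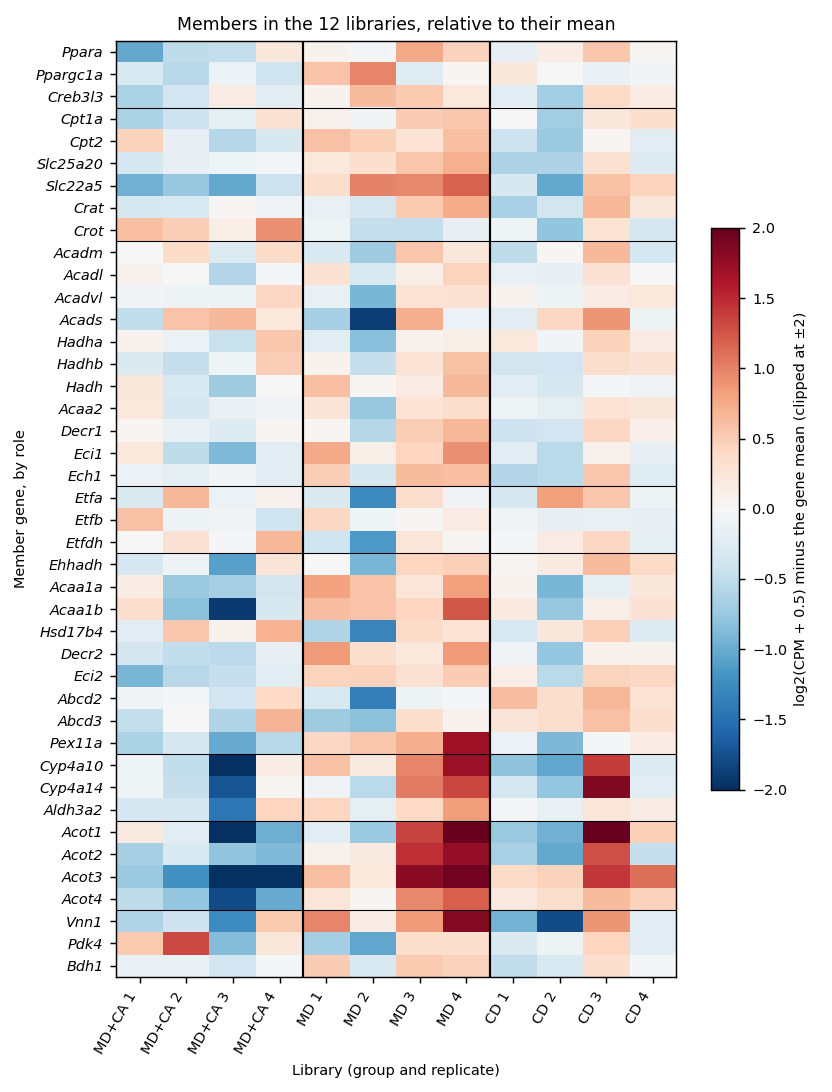
Level of each of the 42 genes in each library, as log2(CPM + 0.5) minus the gene's mean over the 12 libraries (colour, clipped at ±2), with genes ordered by role and libraries by group. The columns MD replicate 4 and CD replicate 3 are mostly red, while MD+CA replicate 3 is the darkest blue column for Cyp4a10, Cyp4a14, Acot1 and Acot4. For Acot3, MD+CA replicates 3 and 4 share the darkest blue, because both lie beyond the clip.

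The MD+CA vs MD comparison asks what cinnabarinic acid changed on the MASH diet. Of the 42 genes, 6 fell and 0 rose in MD+CA livers: Slc22a5, Pex11a, Decr2, Eci2, Acot3 and Acot4. A gene is said to rise or fall at a Benjamini-Hochberg adjusted p under 0.05 in edgeR's quasi-likelihood test. The 6 are 14.3% of the 42 genes, where 1.64% of all genes tested fell and 1.06% rose (2.71% in both directions). The median log2 fold change was -0.55, against 0.00 over all genes tested. Values below 0 were found for 31 of the 42 (73.8%), against 50.3% of all genes. At an unadjusted p under 0.05, 20 were lower (47.6%) and 1 higher (2.38%), where 11.6% of all genes were lower and 11.6% higher (23.2% together). With DESeq2 11 of the 42 were lower and 1 higher, where 4.76% and 4.53% of all genes were, and with limma voom 9 were lower and 0 higher, where 1.62% and 1.37% of all genes were. In 11 genes (26.2%) all MD+CA libraries lay below all MD libraries, and in 1 gene (2.38%) all lay above, as in 5.18% and 4.99% of all genes.

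By role, the 4 thioesterases had the lowest median log2 fold change, -1.71, and all 4 were lower at an unadjusted p under 0.05. The 3 omega-oxidation genes had a median of -1.07, the 9 peroxisomal genes -0.95 and the 3 regulators -0.73. The 6 genes of carnitine and acyl-CoA entry had a median of -0.54 and the 11 mitochondrial beta-oxidation enzymes -0.21. The 3 electron transfer genes, which pass electrons from acyl-CoA dehydrogenases to ubiquinone, had a median of 0.34. Differences between roles were not tested.

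Acot3, a peroxisomal thioesterase of mouse liver, had 58, 41.7, 7.22 and 19.6 CPM in MD+CA replicates 1 to 4, against 149, 113, 344 and 374 CPM in MD replicates 1 to 4. No MD+CA library reached the lowest MD library, and replicate 3 of MD+CA was the lowest. The log2 fold change was -2.95 (SE 0.55, adjusted p = 0.0171), or 7.73-fold lower. Acot4, a second peroxisomal member of the cluster that acts on succinyl-CoA and related esters, had 125, 103.4, 50.8 and 88 CPM in MD+CA, against 210, 180, 348 and 409 CPM in MD. The groups did not overlap, and the log2 fold change was -1.64 (SE 0.31, adjusted p = 0.0171). Their neighbours Acot1, which is cytosolic, and Acot2 had values of -1.64 and -1.78 (SE 0.74 and 0.51), and neither passed (adjusted p = 0.196 and 0.0663). Acot1 had 31.7, 23.7, 4.81 and 13.8 CPM in MD+CA, against 24, 16.4, 72 and 120 CPM in MD. Its groups overlapped, and without MD replicate 4 its value was -1.01. These 4 genes share stretches of sequence, so the division of reads between them is uncertain.

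Of the genes for carnitine and acyl-CoA entry, 1 of 6 passed. Slc22a5, the plasma membrane carnitine transporter OCTN2, had 5.88, 6.79, 5.57 and 8.73 CPM in MD+CA, against 15.3, 24, 23.7 and 27.4 CPM in MD. Its groups were well apart, and the level was 3.34-fold lower (-1.74 on the log2 scale, SE 0.32, adjusted p = 0.0171). Cpt1a, the outer membrane carnitine palmitoyltransferase that controls entry into mitochondria, had 132, 154, 179 and 252 CPM in MD+CA, against 219, 199, 292 and 298 CPM in MD. The groups overlapped, and the value of -0.49 did not pass (SE 0.27, adjusted p = 0.275). Crot, which makes medium-chain carnitine esters in peroxisomes, was named after its values were seen, as the single gene with all MD+CA libraries above all MD libraries. It had 565, 526, 409 and 704 CPM in MD+CA, against 354, 269, 268 and 334 CPM in MD, with a value of 0.85 that did not pass (SE 0.25, adjusted p = 0.0729).

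Among 9 peroxisomal genes 3 fell. Pex11a, a membrane protein of peroxisome growth and division, had 42.7, 52.6, 33 and 45.1 CPM in MD+CA, against 89.2, 98.1, 111 and 217 CPM in MD. The MD+CA libraries were all lower, and MD replicate 4 was the highest of all. The log2 fold change was -1.57 (SE 0.30, adjusted p = 0.0186). Decr2, the peroxisomal 2,4-dienoyl-CoA reductase needed for unsaturated chains, had 92.3, 84.6, 82.9 and 107.4 CPM in MD+CA, against 217, 151, 139 and 216 CPM in MD (value -0.98, SE 0.23, adjusted p = 0.0398). Eci2, an enoyl-CoA isomerase, had 58.1, 74.6, 79.5 and 93.2 CPM in MD+CA, against 149, 151, 135 and 156 CPM in MD (-0.95, SE 0.23, adjusted p = 0.0409). Neither gene's groups overlapped. Ehhadh, the bifunctional enzyme that is a classic PPARalpha target, had 155, 182, 92.4 and 234 CPM in MD+CA, against 197, 103.3, 265 and 271 CPM in MD. Its groups overlapped, with a value of -0.33 (SE 0.31, adjusted p = 0.547). The near-identical thiolase genes Acaa1a and Acaa1b, between which the division of reads is uncertain, gave -0.99 and -1.21 and did not pass (adjusted p = 0.0582 and 0.0897). Of the 9 peroxisomal values, 6 were below 0 and 3 above, and they ran from -1.57 to 0.49.

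The regulators, omega-hydroxylases and remaining targets gave 0 calls. Ppara had 18.6, 26.8, 27.5 and 45.1 CPM in MD+CA, against 40.4, 37.4, 65.3 and 52.8 CPM in MD (value -0.73, SE 0.27, adjusted p = 0.125). Only MD+CA replicate 4 lay within the MD range. Ppargc1a had 18.3, 15.4, 20.9 and 17.1 CPM in MD+CA, against 34.1, 45, 19.2 and 23.4 CPM in MD, a value of -0.76 (SE 0.24, adjusted p = 0.0816). Creb3l3, a liver transcription factor that works with PPARalpha, had 102.04, 121, 178 and 137 CPM in MD+CA, against 167, 245, 227 and 184 CPM in MD, a value of -0.61 (SE 0.25, adjusted p = 0.165). In both genes 1 MD+CA library lay within the MD range. Cyp4a10 had 189, 143, 38.9 and 222 CPM in MD+CA, against 302, 228, 396 and 665 CPM in MD. Its groups did not overlap, but within-group spread was wide and the value of -1.42 did not pass (SE 0.56, adjusted p = 0.151). Cyp4a14 had 184, 142, 58.7 and 199 CPM in MD+CA, against 186, 135, 403 and 499 CPM in MD, and its groups overlapped (-1.07, SE 0.57, adjusted p = 0.269). Vnn1, a pantetheinase that responds strongly to PPARalpha agonists, had 36.7, 41.9, 23.2 and 80.7 CPM in MD+CA, against 111, 62.1, 101.3 and 201 CPM in MD (-1.38, SE 0.51, adjusted p = 0.13). Bdh1, which makes the ketone body 3-hydroxybutyrate, had 385, 382, 323 and 412 CPM in MD+CA, against 598, 340, 606 and 579 CPM in MD, with a value of -0.50 (SE 0.24, adjusted p = 0.227). MD replicate 2 lay within the MD+CA range.

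Pdk4, which inhibits pyruvate dehydrogenase when fat is burnt, had 21.4, 37.3, 7.85 and 17.3 CPM in MD+CA, against 9.04, 6.92, 18.8 and 18.7 CPM in MD. The value of 0.65 did not pass (SE 0.40, adjusted p = 0.341). The highest library was MD+CA replicate 2, the library with striated muscle markers, and without it the value was 0.22.

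The 11 mitochondrial beta-oxidation enzymes and 3 electron transfer genes gave 0 calls, with values from -0.89 to 0.50. In these 2 groups of genes 6 values were above 0 and 8 below.

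**Figure D2:**
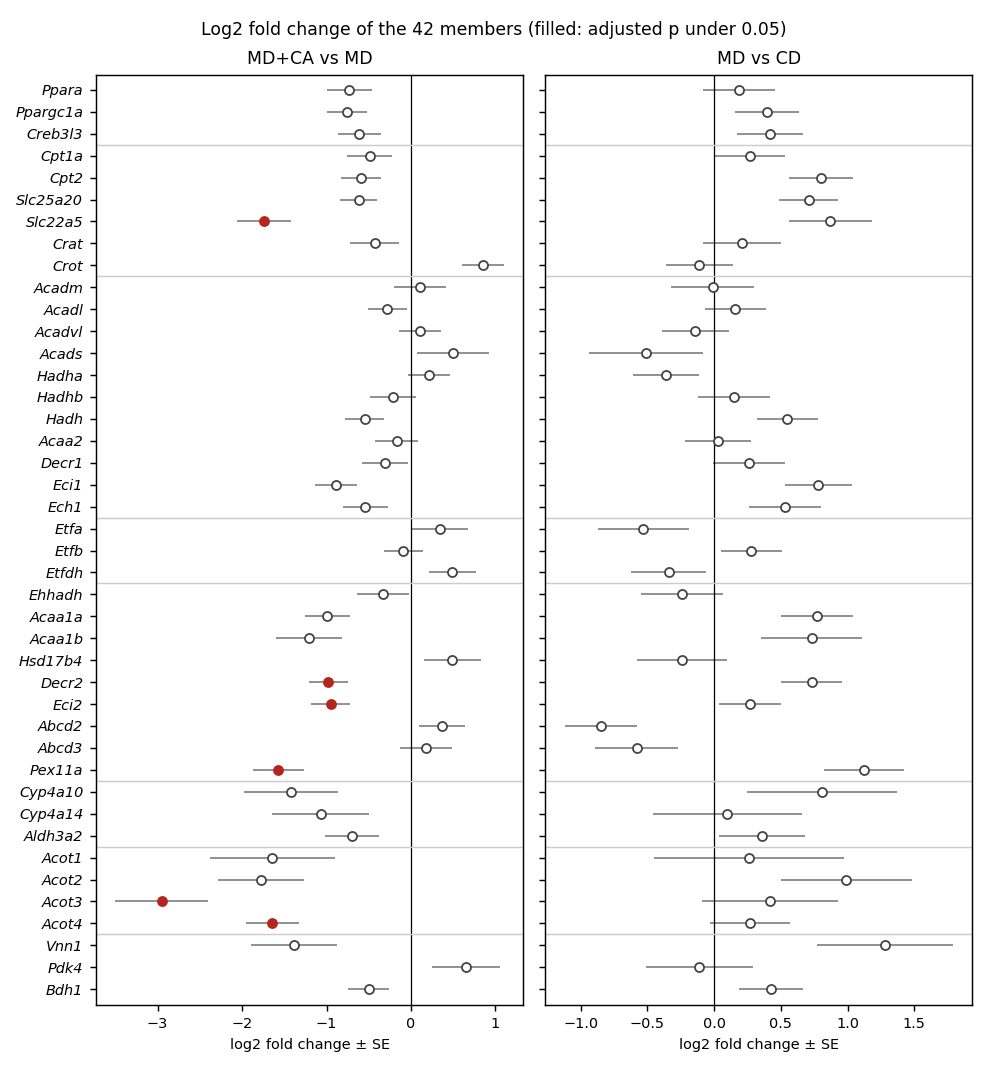
Log2 fold change (point) and its SE (bar) of each of the 42 genes in MD+CA vs MD (left) and MD vs CD (right), with genes by role from top to bottom and filled points for an adjusted p under 0.05. The 6 filled points are all in the left panel, from -2.95 for Acot3 to -0.95 for Eci2.

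**Figure D3:**
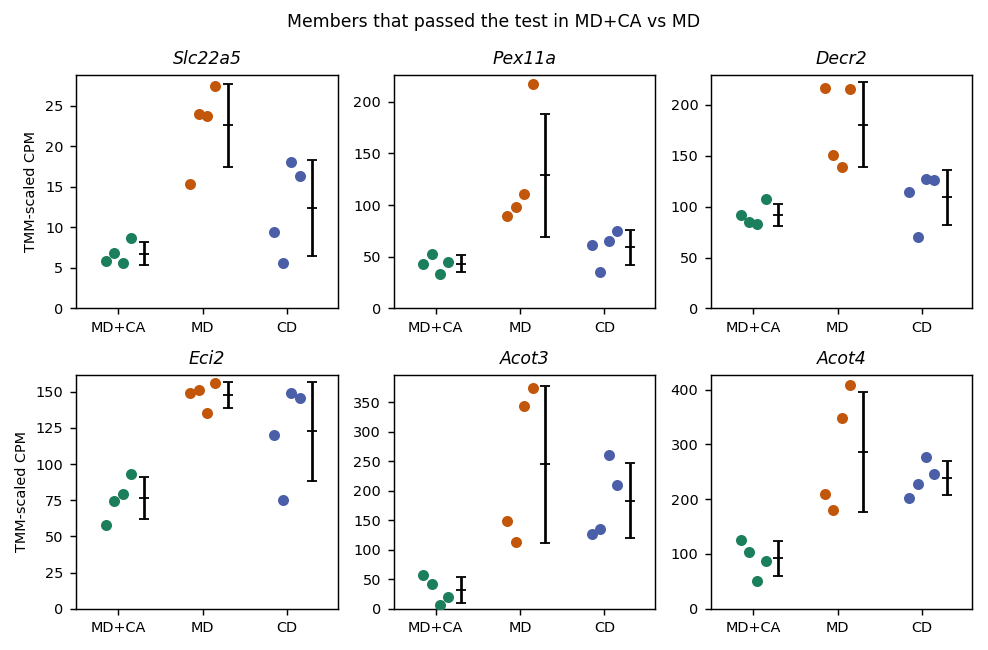
TMM-scaled CPM of the 6 genes that fell in MD+CA vs MD, in each library (points) with the group mean and SD (bars), for MD+CA, MD and CD. In each panel all 4 MD+CA points lie below all 4 MD points, and for Acot3 and Acot4 also below all 4 CD points.

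Other genes moved between the same libraries. Of 16 clock genes 1 rose and 8 fell in MD+CA vs MD. Bmal1 was at 8.76 to 17.1 CPM in MD+CA, against 0.716 to 1.93 CPM in MD and 0.765 to 2.7 CPM in CD. Per3 was at 1.52 to 11.8 CPM in MD+CA, against 56.8 to 91.1 CPM in MD and 28.3 to 48.2 CPM in CD. No time of collection is given in the labels, so time of day and cinnabarinic acid cannot be told apart. Of 11 tested immediate early genes 7 fell, and their mean log2 CPM was 2.47 to 3.51 in MD+CA, against 3.72 to 6.22 in MD and 2.25 to 4.27 in CD. Of 10 Kupffer cell markers 5 rose, and their summed level was 382 to 765 CPM in MD+CA, against 183 to 304 CPM in MD and 230 to 287 CPM in CD. Hepatocyte markers summed to 51968 to 74029 CPM in MD+CA, against 41309 to 71237 CPM in MD, and 0 of 10 passed. The part of these shifts in the values of the 42 genes was not tested. In bulk tissue, fewer cells of a type and less RNA per cell cannot be told apart. Without MD+CA replicate 3, Slc22a5, Acot3 and Acot4 still passed and the count was 3. The calls of Decr2 and Eci2 held in 4 and 3 of the 12 fits with 1 library left out, that of Pex11a in 11, and those of the other 3 in 12.

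MD vs CD asks what the MASH diet with vehicle changed. Of the 42 genes, 0 passed edgeR's test, where 0.088% of all genes did (0.044% higher and 0.044% lower). At an unadjusted p under 0.05 there were 9 higher (21.4%) and 1 lower (2.38%), where 10.5% and 9.4% of all genes were (19.9% together). All MD libraries lay above all CD libraries in 7 genes (16.7%) and below them in 1 (2.38%), as in 5.99% and 7.11% of all genes. The median log2 fold change was 0.27, against 0.04 over all genes tested. With DESeq2 4 were higher and 1 lower, where 2.3% and 2.51% of all genes were. With limma voom 5 were higher and 0 lower, where 1.38% and 1.36% of all genes were. Pex11a had 89.2, 98.1, 111 and 217 CPM in MD, against 61.5, 35.3, 65.3 and 74.9 CPM in CD. All MD libraries were higher, and the log2 difference came to 1.12 (SE 0.30, adjusted p = 0.115). Cpt2, the inner membrane carnitine palmitoyltransferase, had 257, 239, 209 and 261 CPM in MD, against 129, 103.03, 176 and 147 CPM in CD, also with no overlap (0.80, SE 0.24, adjusted p = 0.124). Slc25a20, the carnitine-acylcarnitine carrier, had 98.9, 108.03, 125 and 140 CPM in MD, against 55.3, 55.5, 106.1 and 71.2 CPM in CD. CD replicate 3 lay within the MD range, and the value was 0.71 (SE 0.22, adjusted p = 0.131). Eci1, the mitochondrial enoyl-CoA isomerase, had 111, 71.1, 88.6 and 124 CPM in MD, against 56.6, 45, 69.8 and 58.1 CPM in CD (0.78, SE 0.25, adjusted p = 0.134). Decr2 had 217, 151, 139 and 216 CPM in MD, against 114, 70.1, 127 and 126 CPM in CD, a value of 0.73 (SE 0.23, adjusted p = 0.133). Neither of these 2 genes overlapped between the groups.

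Abcd2, which carries very long-chain acyl-CoA into peroxisomes, was the single gene lower at an unadjusted p under 0.05. It had 64.1, 30.6, 73.7 and 78.4 CPM in MD, against 122, 99.4, 126 and 96.4 CPM in CD (log2 fold change -0.85, SE 0.27, adjusted p = 0.131). The groups did not overlap, and MD replicate 2 was the lowest library.

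Slc22a5 had 15.3, 24, 23.7 and 27.4 CPM in MD, against 9.46, 5.57, 18.1 and 16.4 CPM in CD (0.87, SE 0.31, adjusted p = 0.158). Its groups overlapped through MD replicate 1. Eci2, Acot3 and Acot4 gave smaller values than Slc22a5, while Acot2 gave 0.99 (SE 0.49, adjusted p = 0.27). Eci2 had 149, 151, 135 and 156 CPM in MD, against 120, 75.4, 149 and 146 CPM in CD (0.27, SE 0.23, adjusted p = 0.521). Acot3 gave 0.42 (SE 0.51, adjusted p = 0.665), with 149, 113, 344 and 374 CPM in MD, against 127, 135, 261 and 209 CPM in CD. Acot4 gave 0.27 (SE 0.30, adjusted p = 0.638), with 210, 180, 348 and 409 CPM in MD, against 203, 228, 277 and 246 CPM in CD. In Eci2, Acot2, Acot3 and Acot4 the groups overlapped.

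Of the regulators, Ppara had 40.4, 37.4, 65.3 and 52.8 CPM in MD, against 34.1, 42.4, 56.2 and 39 CPM in CD (0.19, SE 0.27, adjusted p = 0.713). Ppargc1a had 34.1, 45, 19.2 and 23.4 CPM in MD, against 26.7, 22.6, 20.8 and 21.8 CPM in CD (0.40, SE 0.24, adjusted p = 0.344). Creb3l3 had 167, 245, 227 and 184 CPM in MD, against 135, 98.2, 206 and 175 CPM in CD (0.42, SE 0.25, adjusted p = 0.355). All 3 overlapped between the groups. Cpt1a had 219, 199, 292 and 298 CPM in MD, against 207, 127, 240 and 260 CPM in CD (0.27, SE 0.26, adjusted p = 0.577). Ehhadh had 197, 103.3, 265 and 271 CPM in MD, against 204, 221, 305 and 256 CPM in CD (-0.24, SE 0.31, adjusted p = 0.696). Bdh1 had 598, 340, 606 and 579 CPM in MD, against 298, 342, 523 and 410 CPM in CD (0.43, SE 0.24, adjusted p = 0.322). These 3 overlapped as well.

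The genes with the widest spread turned on single libraries. Vnn1 had 111, 62.1, 101.3 and 201 CPM in MD, against 28.9, 15.9, 103.8 and 47.7 CPM in CD (1.28, SE 0.51, adjusted p = 0.192), and its value was 1.94 without CD replicate 3 and 0.90 without MD replicate 4. Cyp4a10 had 302, 228, 396 and 665 CPM in MD, against 114, 97.1, 531 and 167 CPM in CD (0.81, SE 0.56, adjusted p = 0.42), and its value was 1.65 without CD replicate 3. CD replicate 3 was the highest CD library for both. Cyp4a14 had 186, 135, 403 and 499 CPM in MD, against 154, 115, 706 and 169 CPM in CD (0.10, SE 0.56, adjusted p = 0.941), and its value was 1.07 without CD replicate 3. Acot1 had 24, 16.4, 72 and 120 CPM in MD, against 16.5, 14.1, 125 and 38.9 CPM in CD (0.26, SE 0.71, adjusted p = 0.865), and its value was 1.32 without CD replicate 3 and -0.37 without MD replicate 4. For these 2 genes CD replicate 3 was the highest of the 8 libraries. Pdk4 had 9.04, 6.92, 18.8 and 18.7 CPM in MD, against 11.9, 13.7, 19.9 and 12.7 CPM in CD (-0.11, SE 0.40, adjusted p = 0.896). Without CD replicate 3 the largest median of the 42 values was reached, 0.40, and without MD replicate 4 the smallest, 0.15.

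MD+CA vs CD asks how far livers with both diet and cinnabarinic acid stood from the control diet. Of the 42 genes, 0 passed edgeR's test, where 0.528% of all genes did (0.22% higher and 0.308% lower). At an unadjusted p under 0.05, 4 were lower and 1 higher (9.52% and 2.38%), where 4.37% and 6.16% of all genes were (10.5% together). DESeq2 called 2 lower and 0 higher, where 1.12% and 1.34% of all genes were, and limma voom also 2 lower and 0 higher, where 0.602% and 0.8% of all genes were. Both tools named Acot3 and Acot4. Acot3 had 58, 41.7, 7.22 and 19.6 CPM in MD+CA, against 127, 135, 261 and 209 CPM in CD, and the log2 difference came to -2.53 (SE 0.54, adjusted p = 0.0518). Acot4 had 125, 103.4, 50.8 and 88 CPM in MD+CA, against 203, 228, 277 and 246 CPM in CD (-1.38, SE 0.30, adjusted p = 0.0531). Neither gene's groups overlapped. These were 2 of the 42 genes (4.76%), where 2.91% of all genes lay lower without overlap, and 0 of the 42 lay higher, where 3.47% of all genes did. Eci2 gave -0.69 (SE 0.23, adjusted p = 0.217), Slc22a5 -0.87 (SE 0.32, adjusted p = 0.278), Ppara -0.54 (SE 0.27, adjusted p = 0.525) and Crot 0.74 (SE 0.25, adjusted p = 0.232). Pex11a gave -0.45 (SE 0.30, adjusted p = 0.705) and Decr2 -0.25 (SE 0.23, adjusted p = 0.83). In all 6 of these genes the groups overlapped. Ppargc1a gave -0.36 (SE 0.24, adjusted p = 0.703), Creb3l3 -0.19 (SE 0.25, adjusted p = 0.902) and Cpt1a -0.22 (SE 0.26, adjusted p = 0.883). Ehhadh gave -0.57 (SE 0.31, adjusted p = 0.602), Bdh1 -0.07 (SE 0.24, adjusted p = 0.976) and Pdk4 0.54 (SE 0.40, adjusted p = 0.761). Without CD replicate 3, Bdh1 changed sign and was at 0.10. The values of the other 4 fixed genes moved by over 1.5-fold without CD replicate 3. Cyp4a10 gave -0.62 (SE 0.56, adjusted p = 0.83) and 0.23 without CD replicate 3, and Cyp4a14 gave -0.97 (SE 0.57, adjusted p = 0.639) and 0.00 without it. Acot1 gave -1.39 (SE 0.73, adjusted p = 0.574) and -0.32 without it, and Vnn1 gave -0.10 (SE 0.50, adjusted p = 0.983) and 0.56 without it. The 11 mitochondrial beta-oxidation enzymes had values from -0.15 to 0.11. Over all 42 the median was -0.19, against 0.02 over all genes tested.

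Several genes carried reads on transcripts that are not annotated as protein coding, such as retained introns. The division of reads among transcripts of a gene is an estimate of the quantification. For Decr2, 22.1% of reads fell to protein-coding transcripts. Those transcripts had 26.1 ± 14 CPM in MD+CA, 29.2 ± 14.1 CPM in MD and 30.8 ± 7.88 CPM in CD (SD, n = 4 each). Its other transcripts had 65.7 ± 12.1 CPM in MD+CA, 152 ± 47.8 CPM in MD and 78.5 ± 25.6 CPM in CD (SD, n = 4 each). The 3 group means of the protein-coding transcripts lay within 1 SD of each other, and the MD mean of the other transcripts stood above both other groups by more than 1 SD. For Eci2 both classes were lower in MD+CA, at 62.1 ± 13.7 CPM against 103.7 ± 13.7 CPM in MD for protein-coding transcripts and 14.3 ± 4.44 CPM against 44 ± 16.4 CPM in MD for the others (SD, n = 4 each). Acot3, Acot4, Pex11a and Slc22a5 were read mainly as coding transcripts. Acot4-201 took 99.6% of Acot4 reads, Pex11a-201 96.7% and Slc22a5-201 97.4%. The 2 main Acot3 transcripts, Acot3-201 and Acot3-202, held 47.3% and 47% of its reads. They were at 11.8 ± 12 and 17.3 ± 10.3 CPM in MD+CA, against 128 ± 71.7 and 103.99 ± 51.9 CPM in MD (SD, n = 4 each).

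Cpt2 was read almost wholly as protein-coding transcripts, and its 2 main ones are given for MD vs CD. The long transcript Cpt2-201, of 2372 bases, had 59 ± 31.5 CPM in MD and 56.2 ± 21.8 CPM in CD (SD, n = 4 each). The short Cpt2-203, of 1015 bases, had 183 ± 48.7 CPM in MD and 82.2 ± 17.4 CPM in CD (SD, n = 4 each). These transcript values were chosen after they had been seen and carry no test.

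**Figure D4:**
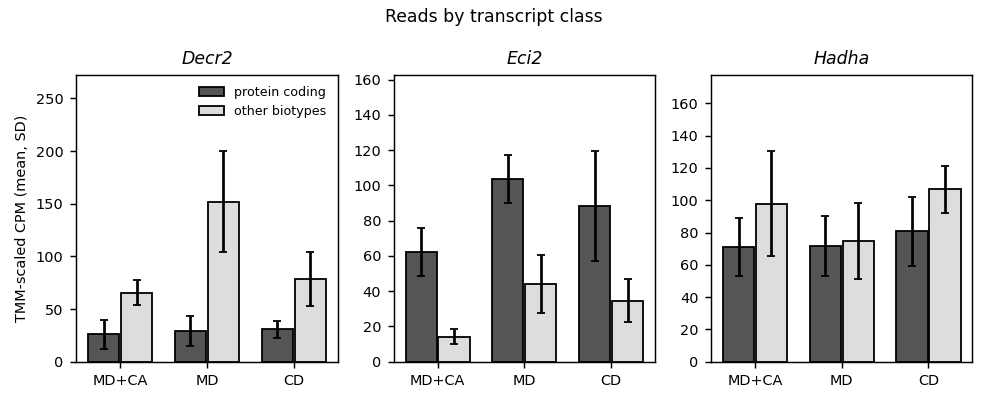
Mean TMM-scaled CPM (bars) with SD over 4 libraries (lines) of protein-coding transcripts and of transcripts of other annotated biotypes, for Decr2, Eci2 and Hadha in MD+CA, MD and CD. For Decr2 the dark bars stay near 26.1 to 30.8 CPM while the light bar of MD stands at 152 CPM.

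Libraries of 1 group differed from each other across the 42 genes. In MD, replicate 4 was the highest library for 27 of the 42 genes and replicate 2 the lowest for 30. In CD, replicate 3 was the highest for 34 and replicate 2 the lowest for 23. In MD+CA, replicate 4 was the highest for 20 and replicate 3 the lowest for 25. The median deviation of the 42 genes from their overall mean ran from -0.47 to -0.02 in MD+CA, from -0.24 to 0.56 in MD and from -0.34 to 0.42 in CD, on a log2 scale. The median over all genes tested stayed between -0.02 and 0.03 in every library.

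Of 60 further genes of the same routes, 56 were tested. In MD+CA vs MD 2 of the 56 fell (3.57%) and 0 rose, where 1.64% of all genes fell and 1.06% rose. Mgll, monoacylglycerol lipase, had 107.7, 83.6, 127 and 100.2 CPM in MD+CA, against 227, 247, 189 and 238 CPM in MD (value -1.11, SE 0.23, adjusted p = 0.0228). Angptl4, a PPAR target that inhibits lipoprotein lipase, had 15.9, 32.6, 37.5 and 60.7 CPM in MD+CA, against 100.5, 95.7, 168 and 145 CPM in MD (-1.80, SE 0.39, adjusted p = 0.0288). Both were without overlap, and each call held in 8 of 12 fits with 1 library left out. Of the 56, 7 lay lower without overlap (12.5%) and 1 higher (1.79%), where 5.18% and 4.99% of all genes did. The Mgll call did not hold with an offset for transcript length (-1.90, adjusted p = 0.068) or with fragment length as a covariate (-1.11, adjusted p = 0.0519). Ppargc1b, a coactivator related to Ppargc1a, gave -1.47 (SE 0.39, adjusted p = 0.057) and -0.84 without MD replicate 2. That library, which also had 17.5% mitochondrially encoded RNA, was at 67.8 CPM, against 18.1 to 23.3 CPM in the rest of MD. The median of the 56 was -0.27, and 44 (78.6%) were below 0. At an unadjusted p under 0.05, 13 were lower (23.2%) and 1 higher (1.79%), where 11.6% of all genes were lower and 11.6% higher. In MD vs CD 1 of the 56 rose and 0 fell, where 0.044% of all genes rose and 0.044% fell. It was the mitochondrial carrier Ucp2, with 46.4, 41, 28.8 and 60.2 CPM in MD, against 19.5, 14, 17.7 and 21.8 CPM in CD (1.27, SE 0.22, adjusted p = 0.0486). That call held in 1 of 12 fits with 1 library left out, and not with the length offset (0.99, adjusted p = 0.133), the fragment length covariate (1.19, adjusted p = 0.108) or only the compared groups (1.27, adjusted p = 0.0546). Fgf21, the fasting hormone of the liver, gave 1.28 (SE 0.35, adjusted p = 0.115) and Mgll 0.77 (SE 0.23, adjusted p = 0.121). At an unadjusted p under 0.05, 8 of the 56 were higher (14.3%) and 3 lower (5.36%), where 10.5% and 9.4% of all genes were. In MD+CA vs CD 0 of the 56 passed edgeR's test, where 0.528% of all genes did. At an unadjusted p under 0.05, 8 were lower (14.3%) and 3 higher (5.36%), where 4.37% and 6.16% of all genes were. The 3 with the smallest p were Ucp2 (0.81, SE 0.22, adjusted p = 0.121), Acacb, which makes the malonyl-CoA that blocks Cpt1a (-1.82, SE 0.51, adjusted p = 0.126, and -2.61 without MD+CA replicate 4), and Angptl4 (-1.37, SE 0.39, adjusted p = 0.134).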

How the data were processed

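Per the labels' protocols, poly(A)-selected RNA came from snap-frozen liver, with 500 ng of Trizol-extracted RNA as library input. Per the submitters' processing notes, fastp, Salmon 1.10.3, DESeq2 and GRCm39 were used. The sources used here state no options, release of the annotation or strand setting. The deposited tables hold, per the file headers, raw expected counts of each transcript. They also give TPM, which the authors' quantification scaled for length and depth within each library, per the file headers. One table per library lists 147556 transcripts.

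Gene totals of the expected counts were rounded to whole numbers. TPM values were summed per gene for levels between genes. Genes were kept by filterByExpr (minimum count 10) and scaled by TMM, and CPM are TMM-scaled. One edgeR 4.0.16 quasi-likelihood model with 3 group means was fitted to 12 libraries (9 degrees of freedom left, biological coefficient of variation 0.308). P-values were adjusted by Benjamini-Hochberg over 13631 genes, with a threshold of 0.05, and an SE is the log2 fold change over the square root of F. Log2 CPM used a prior count of 2. Software was R 4.3.3 (DESeq2 1.42.0, limma 3.58.1) and Python 3.11.15 (pandas 2.3.3, matplotlib 3.10.9, numpy 2.4.6).

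The 42 genes, the lists and the tests were chosen with earlier results of these data known. Test statistics go to the genes that passed in any comparison and 11 fixed genes, in each comparison. They also go to the 6 smallest p of each comparison. Library values go with them in MD+CA vs MD and MD vs CD, and in MD+CA vs CD for Acot3 and Acot4 only. Outside this rule, statistics are also given for Acot2, Acaa1a, Acaa1b and Crot in MD+CA vs MD, and for Acot2 in MD vs CD. Of the further pathway genes, those that passed and the 3 smallest p of each comparison are named. Pairs of libraries within a group differed by far more than sampling noise. Alternatives were DESeq2, limma voom, upper-quartile or RLE scaling, no filter, a transcript length offset, only the compared groups, a replicate block, a fragment length covariate, leaving out mitochondrial and ribosomal RNA genes, and leaving out each library.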

Additional observations from a re-analysis of the deposited data

Results flagged for a closer look

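Of 126 sets of 4 library values (42 genes in 3 groups), 5 held a library far from its 3 companions. By chance the rule flags about 1 in 20 sets if sets are independent. The 42 genes share the same libraries, so that rate is only a rough guide. In MD replicate 2, the library with 17.5% mitochondrially encoded RNA, Acaa2 was at 304 CPM (612 to 651 in the rest of MD), Ech1 at 113 CPM (200 to 220) and Bdh1 at 340 CPM (579 to 606). Acadvl was at 360 CPM in MD+CA replicate 4, against 251 to 261 CPM in the other 3. Acaa1b was at 308 CPM in CD replicate 2, against 567 to 641 CPM in the other 3. None of these 5 genes passed in any comparison.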

How the results depend on the processing

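All 3 medians of the 42 values moved by less than 0.302 under every alternative run. That is the spread of the median of the 42 genes between libraries, on the log2 scale. It exceeds in size the medians of MD vs CD (0.27) and MD+CA vs CD (-0.19), so for these it cannot show that a median held. The MD+CA vs CD median was -0.01 without CD replicate 3, and the MD vs CD median was 0.15 without MD replicate 4. The number of the 42 genes that passed was 6 in MD+CA vs MD, all lower, and was 12 with DESeq2 (11 lower), 13 without a low-count filter and 3 to 9 with 1 library left out. All 6 calls held with limma voom, RLE and upper-quartile scaling, and 5 with the transcript length offset (not Decr2). With the fragment length covariate or with only the compared groups 4 held (not Decr2 or Eci2). The covariate also called Ppara and Acot2 lower, and limma voom also Acaa1a, Acaa1b and Eci1. In MD vs CD the number was 0, and was 5 with DESeq2, 5 with limma voom, 1 without a filter and 0 with any library left out. In MD+CA vs CD it was 0, and was 2 with DESeq2, limma voom, no filter or the fragment length covariate, 1 without mitochondrial and ribosomal RNA genes and 0 to 2 with 1 library left out (2 without MD replicate 2).

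Over all genes, 12 passed in MD vs CD, and 629 with DESeq2, 374 with limma voom, 481 without a filter, 2 with the transcript length offset, 35 with only the compared groups, 6 with the fragment length covariate and 0 to 26 with 1 library left out. In MD+CA vs MD 369 passed, and 1214 with DESeq2, 1017 without a filter, 197 with the offset, 99 with only the compared groups, 142 with the covariate and 109 to 963 with 1 library left out. In MD+CA vs CD 72 passed, and 334 with DESeq2, 191 with limma voom, 390 without a filter, 34 with the offset, 46 with only the compared groups, 164 with the covariate and 17 to 169 with 1 library left out. The cause was not tested.

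Same-numbered libraries of different groups deviated together only in part, with correlations from -0.0792 to 0.35 and 8 of 12 pairs over 0.1, so the numbers were not taken as pairs. As a hint from the data, 10 of 12 libraries correlated best with their own number. With the replicate number as a block, 9 of the 42 genes passed in MD+CA vs MD (the 6, and Acaa1a, Acaa1b and Eci1, all lower) and 0 in each other comparison, and 664 genes overall passed in MD+CA vs MD and 154 in MD+CA vs CD.

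Direction changed for named genes that had not passed. In MD vs CD Ehhadh was at 0.02 with the fragment length covariate, and Pdk4 at 0.06 with limma voom and 0.17 with the covariate. With 1 library left out Pdk4 ran from -0.33 to 0.10, Cyp4a14 from -0.25 to 1.07 and Acot1 from -0.37 to 1.32. In MD+CA vs CD Vnn1 was at 0.03 with limma voom, 0.07 with the replicate block and 0.01 with the covariate. With 1 library left out it ran from -0.54 to 0.56, Cyp4a10 from -0.89 to 0.23, Cyp4a14 from -1.23 to 0.00 and Bdh1 from -0.18 to 0.10. No limit of depth was examined for genes below the low-count filter.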

Other observations

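The 4 further pathway genes left untested had few reads. Cyp4a12a and Cyp4a12b, omega-hydroxylases of male-biased expression in mouse liver, had 0 to 10 and 0 to 2 reads per library, and 0 reads in 7 and 10 of the 12 libraries, although the labels call the mice male. Acot5 had 0 to 8 reads and Ucp3 0 to 19. Hadha, the alpha subunit of the mitochondrial trifunctional protein, had 44.4% of its reads on protein-coding transcripts, at 71.1 ± 18.2 CPM in MD+CA, 71.5 ± 18.7 CPM in MD and 80.8 ± 21.3 CPM in CD (SD, n = 4 each). Its other transcripts had 97.8 ± 32.5 CPM in MD+CA, 74.8 ± 23.4 CPM in MD and 106.9 ± 14.6 CPM in CD (SD, n = 4 each).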
